A study of Homo sapiens and Mus musculus with 24 samples.

Results

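Caco-2 cells in which the long isoform of the DNA methyltransferase DNMT3A, DNMT3A1, had been put back after knockout were compared across all genes with the parental cells. Each difference was set beside the knockout line from which the DNMT3A1 line was made. Caco-2 is a human colorectal adenocarcinoma line that can take on the character of absorptive enterocytes. The comparison took the 3 DNMT3A1 libraries (replicates 1, 2 and 4, with replicate 3 not analysed here) and the 4 wild-type libraries (replicates 1 to 4), which are 7 of the 15 Caco-2 libraries and of the 23 libraries of the whole series for which a count file was used or listed. Of 58051 gene identifiers counted, 17029 had enough reads in these 7 libraries to be tested. The wild-type group was untreated parental Caco-2. The knockout line was clonal, obtained after transient transfection with a CRISPR/Cas9 plasmid against DNMT3A, enrichment through a co-expressed CD4 marker and serial dilution. The DNMT3A1 line was made from those knockout cells with a piggyBac transposon that carried TY1-tagged DNMT3A1 behind a CMV promoter and a fluorescent and puromycin-resistance cassette, together with the transposase. These cells were again diluted, selected in puromycin and expanded as a clone. The DNMT3A2 line, named below only for side-by-side values, received the short isoform in the same vector. Editing, vector, selection, repeated cloning and the isoform itself therefore cannot be told apart as sources of a difference from wild type. The labels do not say that replicates were separate cultures, so the p-values measure the spread between these libraries, which may be technical.

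DNMT3A adds methyl groups to cytosines that precede guanines, and it can set such marks on DNA that did not carry them. Its isoform DNMT3A1 differs from DNMT3A2 by a longer N-terminal end, starts from its own promoter and is the form found across most differentiated tissues. Methylated CG-rich promoters are usually silent, and active genes carry methylation along their bodies, so loss or return of the enzyme can in principle move transcripts either way. In the gut, the epithelium depends on junctions, transporters and digestive enzymes whose genes were examined here by role.

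The libraries held 25923894 to 35336962 gene-assigned read pairs in the DNMT3A1 group and 26653192 to 37799624 in the wild-type group. Replicates of a group differed by more than counting noise (chi-square per degree of freedom 3.21 to 5.6 in the DNMT3A1 group and 2.58 to 3.61 in wild type), so no library was a copy of another. Levels are given as CPM, the count of a gene scaled to a common library size after TMM normalization, as mean ± SD over 4 wild-type and 3 DNMT3A1 libraries. Epithelial and Caco-2 markers had a summed level of 10200 to 10500 CPM in wild type and 10600 to 10900 CPM in the DNMT3A1 line, with the colonic markers CDX1 and GPA33 at or near 0 in both. KRT8 and KRT18 were the highest members in every library, so the sum hides changes of others. Of the 10 tested, 2 were higher and 3 lower. HNF4A was at 409 to 454 CPM in wild type and 308 to 339 CPM in the DNMT3A1 line, CDH1 at 713 to 741 and 587 to 595 CPM, and TSPAN8 at 28.2 to 30.8 and 87 to 88.3 CPM. The leukocyte markers PTPRC, CD2 and MS4A1 and the endothelial markers CDH5, KDR and CLDN5 had at most 1 count in any of these libraries. Other members of these lists were expressed and moved in both directions. LYZ was at 18.6 to 19.1 CPM in wild type and 3.88 to 4.62 CPM in the DNMT3A1 line, and CD14 at 19.9 to 22.5 and 15.2 to 17.1 CPM. CSF1R was higher, at 4.53 to 5.08 and 13 to 14.1 CPM, and the endothelial PECAM1 was at 6.63 to 8.01 and 8.43 to 9.3 CPM. The summed immune list was at 45.1 to 47.4 CPM in wild type and 34.6 to 35.9 CPM in the DNMT3A1 line (6 of its 13 genes at or under 3 counts in every library), the fibroblast and muscle list at 219 to 225 and 175 to 191 CPM, the endothelial list at 8.58 to 11.1 and 13.1 to 13.6 CPM and the neural list at 9.28 to 11.6 and 2.23 to 3.22 CPM. Their part in the differences below was not tested. In these bulk libraries, fewer cells with a transcript and less of it per cell cannot be told apart.

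The DNMT3A1 line differed from wild type at most genes, but mainly by little. In the quasi-likelihood F test of edgeR, with p-values adjusted by Benjamini-Hochberg, 11113 of the 17029 genes tested passed an adjusted p of 0.05 (65.3%), of which 5552 were higher (32.6% of those tested) and 5561 were lower (32.7%) in the DNMT3A1 line. The median absolute log2 fold change of these genes was 0.44, and 7023 of them (63.2%) differed by less than 1.5-fold. A difference of at least 2-fold was reached by 2043 genes (12%), 1301 of them higher and 742 lower. With a mean of at least 1 CPM required for testing, the number was 1206. At 10790 genes (63.4%) every DNMT3A1 library lay outside the range of the wild-type libraries. Since lane and group were not confounded, the comparison was also made within each sequencing lane: 9849 genes passed within lane 5, with 2 libraries a group. Within lane 6 there were 9637, where the single DNMT3A1 library was taken to vary like the wild-type pair.

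DNMT3A, the gene that was knocked out and put back, stood at 63.7, 62.0, 67.2 and 65.7 CPM in the wild-type libraries and at 36.7, 39.1 and 38.3 CPM in the DNMT3A1 libraries, with no overlap. It remained 0.77 lower on the log2 scale (SE 0.043, adjusted p = 2.58e-14, edgeR), against -1.65 in the knockout line, whose mean was 20.7 ± 1.22 CPM (n = 4). A gene count does not separate transcripts of the edited gene from those of the transgene. The DNMT3A1 and knockout comparisons share the wild-type libraries. Of 33 genes that write, remove, read or assist DNA methylation, 10 were higher and 16 lower in the DNMT3A1 line (median log2 fold change -0.10, against -0.0019 over all genes tested). DNMT3L, a catalytically inactive partner of DNMT3A that is usually restricted to germ and early embryonic cells, rose from 0.516 ± 0.197 to 1.39 ± 0.359 CPM (log2 fold change 1.42, adjusted p = 6.1e-05), at 0.628 CPM in the knockout. The maintenance cofactors were lower at 5 of 6 members, all 5 also lower in the knockout. Among them UHRF1, which brings DNMT1 to newly copied DNA, fell from 127 ± 6.60 to 76.0 ± 2.04 CPM (log2 fold change -0.74, adjusted p = 5.02e-15). The methyl-CpG reader MBD2 fell by 0.70 on the log2 scale, and the cytidine deaminase APOBEC3B rose by 0.59, on a stretch of chromosome 22 whose neighbouring genes had a median log2 fold change of 0.30.

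Sequences upstream of 6 genes are shown because these genes had large losses (SOHLH1, CLDN6, COL4A5 and COL4A6) or were raised in the knockout already (PKIB and DPPA3), and because CG dinucleotides are what DNMT3A acts on. They are the 250 bases before the annotated start, 5′ to 3′ on the gene's strand, from RefSeq on GRCh38.p14, with each CG in capitals. CG reads the same on both strands. They lie at chr9:135699482-135699731, minus strand (SOHLH1), chr16:3018184-3018433, minus strand (CLDN6), chrX:108439588-108439837, plus strand (COL4A5), chrX:108439459-108439708, minus strand (COL4A6), chr6:122471671-122471920, plus strand (PKIB) and chr12:7711183-7711432, plus strand (DPPA3). The pair COL4A5 and COL4A6 is transcribed away from a shared region on the X chromosome, and their windows have 121 bases in common.
SOHLH1: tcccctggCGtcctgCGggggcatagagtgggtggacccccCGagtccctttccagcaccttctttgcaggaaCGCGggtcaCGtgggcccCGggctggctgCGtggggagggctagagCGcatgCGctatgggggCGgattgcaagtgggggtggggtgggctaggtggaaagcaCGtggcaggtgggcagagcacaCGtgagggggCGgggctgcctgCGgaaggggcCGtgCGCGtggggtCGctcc
CLDN6: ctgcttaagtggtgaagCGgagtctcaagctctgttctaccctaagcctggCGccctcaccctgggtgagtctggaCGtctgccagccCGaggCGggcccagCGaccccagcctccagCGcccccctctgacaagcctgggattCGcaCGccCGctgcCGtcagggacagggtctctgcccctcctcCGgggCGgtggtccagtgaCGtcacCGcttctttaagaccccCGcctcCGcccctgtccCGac
COL4A5: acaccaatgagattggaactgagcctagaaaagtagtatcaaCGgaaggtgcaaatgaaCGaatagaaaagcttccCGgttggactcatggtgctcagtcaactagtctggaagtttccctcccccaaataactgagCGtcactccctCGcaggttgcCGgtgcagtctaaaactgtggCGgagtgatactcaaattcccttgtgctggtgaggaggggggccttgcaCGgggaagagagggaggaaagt
COL4A6: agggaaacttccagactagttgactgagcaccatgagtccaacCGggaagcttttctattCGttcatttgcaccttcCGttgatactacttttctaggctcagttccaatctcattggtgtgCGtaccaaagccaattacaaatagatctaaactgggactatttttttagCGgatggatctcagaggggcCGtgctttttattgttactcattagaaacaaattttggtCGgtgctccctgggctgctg
PKIB: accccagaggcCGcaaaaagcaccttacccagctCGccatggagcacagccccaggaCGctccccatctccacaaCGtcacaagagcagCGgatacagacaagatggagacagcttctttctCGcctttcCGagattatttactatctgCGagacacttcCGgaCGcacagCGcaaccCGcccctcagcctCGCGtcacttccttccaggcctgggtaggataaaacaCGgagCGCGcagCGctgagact
DPPA3: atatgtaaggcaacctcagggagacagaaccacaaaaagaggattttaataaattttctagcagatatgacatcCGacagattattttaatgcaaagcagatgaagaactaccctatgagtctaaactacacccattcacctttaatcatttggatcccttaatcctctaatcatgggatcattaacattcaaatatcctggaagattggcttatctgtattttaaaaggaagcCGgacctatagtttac

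These windows held 19 CG in SOHLH1, 18 in CLDN6, 8 in COL4A5, 7 in COL4A6, 18 in PKIB and 2 in DPPA3. A CG occurred in 93.6% of the 27305 promoter windows of this length in the table, with a median of 11 a window. Over the 11637 tested genes with such a sequence the median was 21 CG, against 15 for the 839 genes called at least 2-fold higher, 14 for the 460 called at least 2-fold lower and 20 for the 3411 without a call. The counts describe letters only, since methylation is not part of these values.

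Among called genes with a mean of at least 1 CPM over the 7 libraries and no overlap between groups, the 10 strongest losses were nearly complete, and all 10 genes were lower in the knockout as well. SOHLH1, a transcription factor of early germ cells, was at 9.95, 10.7, 9.79 and 10.7 CPM in the wild-type libraries and had no read in any DNMT3A1 library, at least 103-fold lower when each empty library is set to 3 counts. CLDN6, a claudin of embryonic epithelia, was at 36.7, 34.6, 38.7 and 38.7 CPM against 0.0329, 0 and 0.141 CPM (log2 fold change -9.08, SE 0.17, adjusted p = 4.13e-24, edgeR). The groups stood far apart for both genes. The knockout was at 0.610 ± 0.277 CPM for CLDN6, and for SOHLH1 it had at most 2 counts in any library. COL4A5, a chain of basement membrane collagen, was at 85.2, 84.3, 83.3 and 91.2 CPM against 0.591, 0.574 and 0.564 CPM. Its divergent neighbour COL4A6 was at 51.2, 50.0, 49.1 and 51.3 CPM against 0.230, 0.191 and 0.0564 CPM. Both levels fell by 7.22 and 8.34 on the log2 scale (adjusted p = 7.25e-28 and 4.31e-26), and both were lower than in the knockout (DNMT3A1 against knockout -3.14 and -4.05, adjusted p = 2.78e-12 and 2.55e-10), while the DNMT3A2 line held 39.8 and 19.9 CPM. SYT13, a synaptotagmin, had 3 counts in the DNMT3A1 libraries against 1690 in wild type and was 395-fold lower by summed counts (95% interval 135 to 1917, exact, counting error only). In the same way INPP4B, a phosphoinositide phosphatase, was 186-fold lower (85.3 to 508), PCDH7, a protocadherin, 121-fold (55.5 to 331) and GPRIN2 170-fold (46.9 to 1411). ZNF736, a zinc finger protein, fell from 15 ± 1.52 to 0.0566 ± 0.0676 CPM, and ARRDC4, an arrestin-like protein that responds to glucose, from 16.2 ± 0.467 to 0.104 ± 0.0568 CPM. Unlike the others, PCDH7 was above wild type in the DNMT3A2 line, at 27.2 ± 2.05 CPM (n = 4) against 7.98 ± 0.657 CPM.

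The 10 strongest gains under the same limits started from low wild-type levels. PLA2G7, a secreted phospholipase that inactivates platelet-activating factor, was at 0.239, 0.399, 0.479 and 0.437 CPM in wild type against 21.6, 19.1 and 19.6 CPM (log2 fold change 5.68, SE 0.12, adjusted p = 1.57e-22, edgeR). ITIH2, a serum protein that binds hyaluronan, was at 3.29, 3.55, 3.73 and 3.73 CPM against 92.6, 89.2 and 94.3 CPM (log2 fold change 4.68, SE 0.057, adjusted p = 1.15e-27). For neither gene did the groups overlap, and both stood low in the knockout, at 1.46 ± 0.0833 and 6.62 ± 0.470 CPM, so most of the gain was over the knockout line (log2 difference 3.77 and 3.81, adjusted p = 1.44e-17 and 3.8e-20). DPPA3, which guards oocyte and early embryonic DNA methylation patterns, was at 0.867, 1.16, 0.734 and 1.16 CPM against 19.7, 18 and 20.3 CPM and was already at 15.6 ± 1.02 CPM in the knockout. PKIB, an inhibitor of protein kinase A, rose from 0.738 ± 0.197 to 34.5 ± 2.79 CPM and was likewise high in the knockout (28.5 CPM). The interstitial collagenase MMP1 rose from 6.19 ± 0.543 to 114 ± 2.43 CPM. Its neighbours on chromosome 11 were also higher (median log2 fold change 0.84), by far less than MMP1 itself (4.2). The death ligand TNFSF10 was at 0.508, 0.544, 0.415 and 0.515 CPM in wild type and at 6.27, 4.48 and 15.6 CPM in the DNMT3A1 libraries, all higher but with replicate 4 far above the other two. Its stretch of chromosome 3 had a median of 0.66, and the zinc transporter SLC39A2, which also rose (4.51), lies on chromosome 14 among genes with a median of 0.64. HEPACAM2, a cell adhesion protein (5.57), and the long non-coding transcripts LINC02384 (4.40) and ENSG00000258114 (4.15) completed the group.

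**Figure D1:**
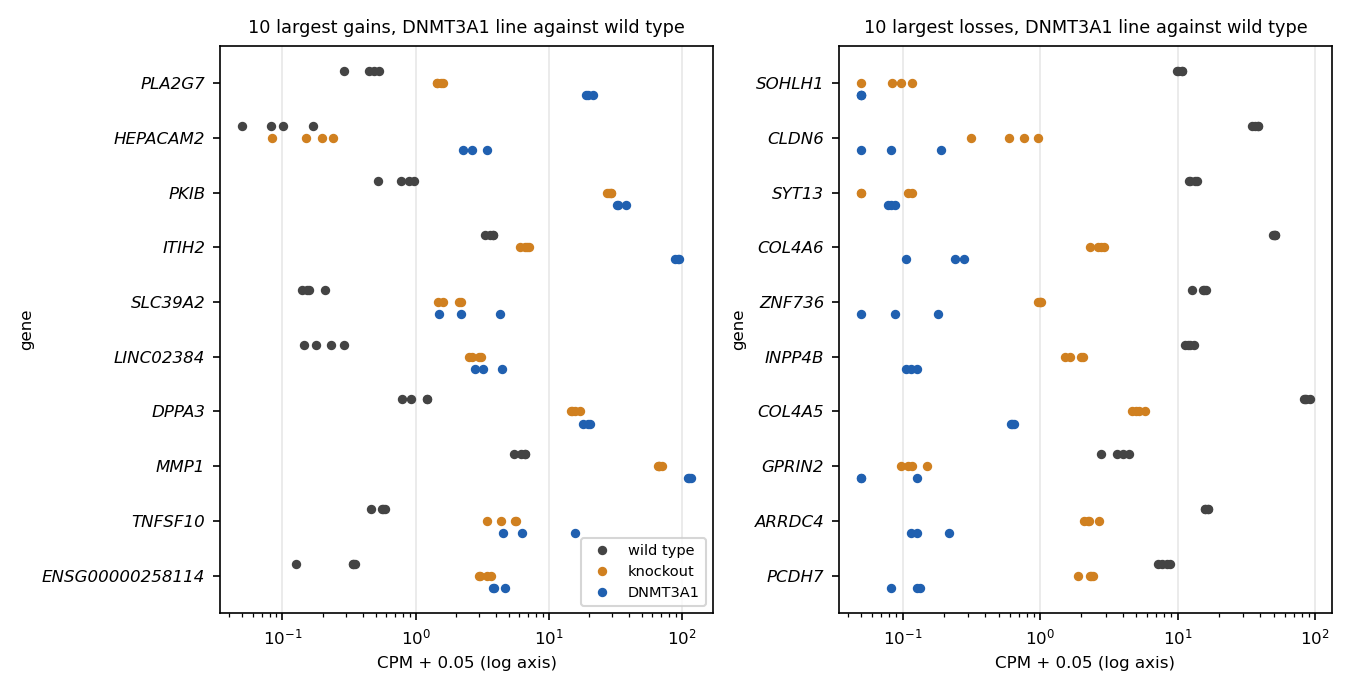
Levels of the 10 genes with the largest gain (left) and the 10 with the largest loss (right) among called genes of at least 1 CPM on average without overlap, in every library, in CPM plus 0.05 on a log axis. Points are libraries (4 wild-type, 4 knockout and 3 DNMT3A1), and in each panel the wild-type and DNMT3A1 points do not overlap, with the knockout near the DNMT3A1 line for PKIB and DPPA3 and near wild type for PLA2G7 and ITIH2.

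Genes that went from silence to expression or the reverse were few. With silence taken as at most 3 counts in every library and expression as a mean of at least 1 CPM, 16 genes were silent in the DNMT3A1 line and expressed in wild type, and 4 showed the reverse. The 16 included, besides SYT13, INPP4B, SOHLH1, PCDH7 and GPRIN2 above, the junctional adhesion molecule JAM3, with no read in any DNMT3A1 library (at least 15.6-fold lower), the dynein chain DYNC1I1 (89.2-fold, 95% counting interval 38 to 276), the Rac activator TIAM1 (76.8-fold, 21 to 638) and the tyrosine kinase SYK (24.5-fold, 10.3 to 76.5). They also included the pseudokinase TRIB2 (24.7-fold, 9.44 to 92) and ZXDA, ZFP92, TUSC1, FBXW10B and ENSG00000267194. All 16 were called lower in the knockout too, and several were not silent there: SYK was at 0.202 ± 0.0415 CPM and ZFP92 at 0.666 ± 0.173 CPM in the knockout libraries. The 4 genes switched on were C10orf90 (97-fold higher, 26.3 to 809), RASSF10-DT (23.7-fold, 11.7 to 56.1) and the 2 MHC class II chains HLA-DPB1 and HLA-DPA1, which present peptides to helper T cells. HLA-DPB1 was at 1.48, 0.881 and 1.07 CPM in the DNMT3A1 libraries and HLA-DPA1 at 1.28, 0.919 and 1.16 CPM, each of them above all wild-type libraries and above the knockout means of 0.128 and 0.365 CPM.

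Genes that stayed different, meaning called in the same direction in the knockout whatever the size, outnumbered those not called there. PLA2G7 and ITIH2 count as stayed, although most of their gain was over the knockout line. Of the 11113 genes called in the DNMT3A1 line, 6161 (55.4%) were called in the same direction in the knockout, 2998 higher and 3163 lower. Another 3083 (27.7%) were not called in the knockout, 1617 (14.6%) were called there in the opposite direction and 252 (2.27%) were not tested there. The background was 10367 of 16654 genes called in the knockout against wild type (62.2%), in either direction. Its counterpart is the sum of the same-direction and opposite shares (55.4% plus 14.6%), not the 55.4% alone. Of the genes at least 2-fold apart from wild type, 799 higher and 521 lower ones stayed, 242 higher and 144 lower ones were not called in the knockout, and 62 higher and 48 lower ones had turned. Both comparisons use the same wild-type libraries, so these counts are a description, and a missing call in the knockout does not show that a gene was equal to wild type there.

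Among genes called in the DNMT3A1 line and not in the knockout, again with a mean of at least 1 CPM over the 7 libraries and no overlap, INMT, a methyltransferase of indole amines, showed the largest loss. It was at 12.2, 11.4, 13.1 and 11.6 CPM in wild type, 13.7, 14.6, 12.8 and 12.3 CPM in the knockout and 0.591, 0.498 and 0.338 CPM in the DNMT3A1 line, where every library was below all others (log2 fold change -4.68, SE 0.14, adjusted p = 9.26e-20, edgeR). IFIT1, an interferon-induced RNA-binding protein, followed with 10.4, 11.6, 10.1 and 11.8 CPM in wild type, 9.37, 9.45, 11.7 and 9.94 CPM in the knockout and 1.84, 0.919 and 2.37 CPM in the DNMT3A1 line. Wild type and knockout overlapped at IFIT1, and the DNMT3A1 libraries lay below both. LY6E-DT (-2.38), ERICH4 (-2.37) and the chemokine CX3CL1 (-2.30) made up the 5. The gains were led by the calcium homeostasis modulator CALHM4, which rose from 0.436 ± 0.182 to 5.88 ± 0.719 CPM with the knockout at 0.662 ± 0.115 CPM. Its relative CALHM5, also on chromosome 6, rose from 2.80 ± 0.138 to 21.4 ± 0.807 CPM with the knockout at 3.06 ± 0.377 CPM. SSPN, part of the dystrophin complex, MDFIC, a transcriptional modulator, and SLC34A2, a sodium-phosphate cotransporter, rose by 3.70, 3.34 and 3.04 on the log2 scale.

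Another class moved against the knockout. COL2A1, the collagen of cartilage, was at 70.1, 67.8, 73.7 and 71.0 CPM in wild type, 62.8, 57.0, 65.9 and 60.7 CPM in the knockout and 353, 363 and 345 CPM in the DNMT3A1 line, so that the DNMT3A1 libraries were apart from both (log2 fold change 2.32 against wild type and 2.52 against the knockout, adjusted p = 2.03e-26 and 4.49e-20). SPTSSB, a regulatory subunit of serine palmitoyltransferase, rose from 8.22 ± 0.681 to 38.6 ± 2.36 CPM and was at 3.66 ± 0.375 CPM in the knockout. PRKCH, a protein kinase C, rose by 2.42 on the log2 scale on chromosome 14, where its neighbours had a median of 0.61, and VSTM5 and the potassium channel subunit KCNK15 rose by 2.39 and 2.25. Of the losses, B4GALNT2, the enzyme that makes the Sda blood group antigen in colon epithelium, was at 26.9, 24.5, 24.5 and 27.7 CPM in wild type, 48.8, 48.8, 51.9 and 56.1 CPM in the knockout and 4.01, 4.02 and 4.09 CPM in the DNMT3A1 line (log2 fold change -2.69, adjusted p = 2.01e-20). The transcript ENSG00000276170, on chromosome 17 as well, fell by 3.33, the interferon-induced genes IFI27 and IFI6 by 2.35 and 1.87, and LRRN4 by 1.85. The means of the DNMT3A2 line were also below wild type at all these losses, with B4GALNT2 at 7.67 CPM and IFI6 at 2.80 CPM. Of the gains, COL2A1 (233 CPM) and PRKCH (4.18 CPM) were above wild type there. SPTSSB (2.59 CPM), VSTM5 (0.538 CPM) and KCNK15 (0.825 CPM) were below it.

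Part of the difference followed the position of genes along chromosomes, and a clear step lay at DNMT3A itself. Steps were not ranked over the genome. DNMT3A is on the short arm of chromosome 2 (chr2:25227855-25342590, minus strand, GRCh38). The 50 tested genes before it, from ROCK2 to POMC, had a median log2 fold change of -0.36 in the DNMT3A1 line, with 7 higher and 28 lower. The 50 tested genes after it, from DTNB to MRPL33, had a median of 1.13, with 47 higher and 2 lower. The medians of the single DNMT3A1 libraries were -0.345, -0.272 and -0.316 before DNMT3A and 1.051, 0.997 and 1.019 after it (log2 of CPM plus 0.5, less the wild-type mean). Those of the wild-type libraries lay between -0.03 and 0.01 on both sides. The knockout line showed the same step, with medians of -0.50 and 1.15 against the same wild-type libraries. The DNMT3A2 line did not, with 0.01 and -0.05, although the methods describe it as made from knockout cells too. These counts do not show how the lines descend from one another, so a gene that stayed different is one called in both lines, with no statement on inheritance from the sequenced knockout clone. Among genes at the step, ADCY3, an adenylate cyclase, and CENPO, a centromere protein, fell by 0.84 and 0.61 on the side before DNMT3A, where EFR3B had no call (-0.10, edgeR adjusted p = 0.0672). On the other side ASXL2, KIF3C, RAB10, HADHA and HADHB rose by 1.15, 1.20, 1.17, 1.02 and 1.08. The nearest tested gene on either side rose. POMC, the pro-opiomelanocortin gene, lies before DNMT3A and so rose against the median of its side. It was at 0.717, 0.689, 0.510 and 0.515 CPM in wild type and 7.95, 7.24 and 6.42 CPM in the DNMT3A1 line. DTNB, the beta dystrobrevin gene, lies after DNMT3A and was at 5.86, 7.07, 7.27 and 7.26 CPM and 39.4, 39.3 and 37.7 CPM. Neither pair of groups overlapped (log2 fold changes 3.56 and 2.49, adjusted p = 8.29e-17 and 2.99e-21), with the knockout at 1.51 ± 0.445 and 17.0 ± 0.250 CPM. DNA copy number and structure were not measured in these files, and how they bear on the step was not tested.

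The raised level extended along the arm in steps. The 86 tested genes from DTNB to FAM98A had a median log2 fold change of 1.145 (80 higher, 3 lower; knockout 1.14), the 140 from CRIM1-DT to ACTR2 had 0.71 (123 higher, 1 lower; knockout 0.54), and the 820 from MCEE to the end of the chromosome had 0.07 (310 higher, 193 lower; knockout 0.01). Among 50-gene windows over the genome, whose medians lay between -0.35 and 0.54 from the 5th to the 95th percentile, the highest was on this arm (27053618 to 30323730 on chromosome 2, GRCh38, median 1.22), with the fructose kinase KHK (1.22), the phosphatase subunit PPP1CB (1.23) and SLC4A1AP (1.21) at its median. Other high windows lay further along, at 43230836 to 55346049 (median 0.81, with RTN4, FBXO11 and MTIF2) and 31334321 to 41894046 (0.80, with SOS1, FEZ2 and HEATR5B). The epithelial adhesion gene EPCAM lies in this region and rose by 0.66 on the log2 scale, from 740.4 ± 10.9 to 1169 ± 43 CPM, less than the median of its neighbours (0.81).

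Most of chromosome 14 differed in the DNMT3A1 line more than in the knockout. The 528 tested genes up to TECPR2 had a median log2 fold change of 0.565, with 420 higher and 23 lower, against 0.11 in the knockout and -0.04 in the DNMT3A2 line. The 57 genes from ANKRD9 on had -0.25, near the knockout (-0.22) and the DNMT3A2 line (-0.22). In the single DNMT3A1 libraries the median of the 528 was 0.53, 0.53 and 0.52. Chromosome 11 had 2 stretches of this kind, with medians of 0.47 for 245 genes up to SLC1A2 and 0.595 for 178 genes from ENSG00000227615 to DIXDC1 (knockout 0.17 and 0.21), separated by 382 genes with a median of -0.18 (knockout -0.12, DNMT3A2 line -0.18). The later stretch held the next highest window of the genome (95976598 to 111308735, median 0.90, knockout 0.34), with POGLUT3, COLCA1 and the membrane-cytoskeleton linker RDX at its median, and it held MMP1, MMP7, MMP10, BIRC2, BIRC3 and MAML2. On chromosome 22, 331 genes up to NDUFA6-DT had a median of 0.335 (knockout 0.29) and the 44 that followed had -0.335 (knockout -0.355, DNMT3A2 line -1.15). Lower levels prevailed on chromosomes 13 (183 of 288 genes lower, 63.5%, median -0.37, knockout -0.13, DNMT3A2 line -0.03) and 20 (307 of 475 lower, 64.6%, median -0.31, knockout -0.19, DNMT3A2 line -0.36). The 4 lowest windows were at 62136735 to 63743505 on chromosome 20 (median -0.58, with MRGBP, MTG2 and TCFL5), 42278188 to 47175699 on chromosome 22 (-0.55, with ATXN10, RTL6 and PPARA), 35668055 to 40689240 on chromosome 20 (-0.51, with NDRG3, RAB5IF and RPRD1B) and 100088954 to 101238820 on chromosome 7 (-0.50, with PPP1R35, PLOD3 and PMS2P1).

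Most of the 16990 genes looked at in this way had neighbours with a median within 0.3 of 0, but only 6737 had neighbours within 0.1. The 50 nearest tested genes had a median log2 fold change within 0.1 of 0 for 6737 genes, of which 58.7% were called and 10.1% were called with at least a 2-fold difference, and a median beyond 0.3 in either direction for 3131 genes (18.4%), of which 78.5% were called. After the median of its neighbours was subtracted, 1718 called genes were still at least 2-fold apart, 1054 above and 664 below. Where neighbours of a gene named below had a median beyond 0.3, it is given beside the gene. The gene lists that follow are read against 32.6% of all tested genes higher and 32.7% lower.

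Cell junctions changed gene by gene rather than as a group. Of 42 tested tight junction genes 17 were higher and 18 lower (median log2 fold change -0.01). Of the 13 claudins 5 rose and 7 fell, among them CLDN2, a cation pore that was at 34.1, 33.5, 33.5 and 36.0 CPM in wild type, 57.6, 56.7, 56.3 and 53.1 CPM in the knockout and 20.1, 18.7 and 17.4 CPM in the DNMT3A1 line. CLDN2 thus lay above wild type in the knockout and below it in the DNMT3A1 line, without overlap (log2 fold change 0.70 and -0.88, adjusted p = 7.92e-14 and 2.58e-13). CLDN11, a barrier claudin, rose from 0.0945 ± 0.0761 to 0.424 ± 0.0543 CPM (neighbour median 0.68), and CLDN15, a sodium pore, fell by 0.88 (neighbour median -0.42). Of the 5 junctional adhesion members 4 fell and none rose, among them CLMP, a CAR-like adhesion protein, from 107 ± 2.67 to 66.5 ± 4.17 CPM with the knockout at 185 ± 3.02 CPM. Of 10 scaffold genes 7 rose and 2 fell. In the adherens junction and desmosome list, 10 of 23 were higher and 7 lower: the desmosomal cadherin DSC3 fell from 15.2 ± 1.44 to 0.342 ± 0.0533 CPM, the plaque protein EVPL from 3.70 ± 0.376 to 0.160 ± 0.0418 CPM, whereas the plaque protein PKP2 rose from 389.8 ± 8.21 to 683 ± 6.37 CPM and the desmosome-associated PERP from 155 ± 2.97 to 445 ± 13.4 CPM. Of 10 keratins 2 rose, KRT20 (0.81, not called within lane 5 alone, adjusted p = 0.18) and KRT23 (1.32), and 3 fell, most of all KRT17 (-1.81).

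Of 12 brush border hydrolases, which digest peptides and sugars at the cell surface, 5 rose and 3 fell. DPP4, a dipeptidase of the microvillus, was at 378, 379, 374 and 379 CPM in wild type and 1336, 1317 and 1320.5 CPM in the DNMT3A1 line (log2 fold change 1.81, SE 0.031, adjusted p = 9.97e-25, edgeR). MEP1A, a metalloprotease of the same membrane, was at 24.1, 22.5, 25.2 and 25.8 CPM and 245, 229.6 and 250.5 CPM (log2 fold change 3.30). Neither overlapped, and both stood closer to wild type in the knockout, at 544 ± 16.8 and 50.3 ± 3.75 CPM. Sucrase-isomaltase, SI, rose from 16.4 ± 0.632 to 55.6 ± 8.53 CPM with the knockout at 13.4 ± 1.89 CPM (neighbour median 0.31), while lactase, LCT, fell from 9.60 ± 1.15 to 5.18 ± 1.06 CPM with the knockout at 26.2 ± 0.708 CPM. The uptake receptor LRP2 rose from 711 ± 25.5 to 1491 ± 216 CPM and CUBN, its partner, fell from 11.6 ± 0.741 to 5.74 ± 0.520 CPM. Of 20 structural genes of the brush border 5 rose, among them MYO1A (1.51), and 8 fell, among them ESPN (-1.05) and MYO1D (-0.99).

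Of 62 tested solute carriers, channels and pumps, 27 were higher and 18 lower (median log2 fold change 0.03, knockout 0.14). The cystine transporter subunit SLC3A1 rose from 6.59 ± 0.794 to 107 ± 4.22 CPM (4.01, against a neighbour median of 0.78), with the knockout at 136 ± 6.39 CPM. The calcium channel TRPV6 rose from 1.12 ± 0.106 to 10.6 ± 1.44 CPM (3.23), and SLCO4A1, an organic anion transporter, fell from 26.2 ± 1.37 to 5.93 ± 0.321 CPM (-2.15, neighbour median -0.53). Among the 18 ion transport genes 8 rose and 6 fell: the epithelial sodium channel subunit SCNN1A went from 25.1 ± 1.6 to 71.2 ± 1.68 CPM with the knockout at 23.9 ± 1.31 CPM, the chloride channel CFTR from 203 ± 4.52 to 306 ± 5.36 CPM with the knockout at 128 ± 1.36 CPM, and the sodium-proton exchanger SLC9A3 fell to 0.0756 ± 0.00945 CPM from 0.730 ± 0.164 CPM (neighbour median -0.44). Of the peptide and amino acid carriers 7 of 13 rose and none fell. The glucose carrier SLC5A1 was raised in the knockout (12.1 ± 0.960 CPM) and at 0.976 ± 0.191 CPM in the DNMT3A1 line, below wild type (1.71 ± 0.30 CPM).

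Most goblet genes and all glucuronosyltransferases with enough counts to be tested were higher. Of 17 listed goblet genes 11 were tested, of which 9 were higher and none lower (median log2 fold change 0.93, knockout 0.72). Of the 9, 6 were also higher in the knockout. REG4, a secreted lectin, was at 1.82, 1.78, 2.23 and 2.37 CPM in wild type and 28.6, 27.6 and 31.4 CPM in the DNMT3A1 line (log2 fold change 3.82, adjusted p = 3.2e-22). The groups did not overlap there, nor at the trefoil peptide TFF1 (1.5 ± 0.483 to 5.31 ± 0.716 CPM) or at AGR2, a disulfide isomerase of mucin folding (153 ± 4.32 to 292 ± 11.4 CPM, neighbour median 0.38), and AGR3 rose by 1.92 (neighbour median 0.36). Of 10 membrane mucins 3 were tested and had no call, and none of the 4 gel mucins had enough counts to be tested. Testing needed a minimum count in at least 1 group, so these counts say nothing of the untested members. All 6 UDP-glucuronosyltransferases tested, of 9 listed, were higher, among them UGT2A3 from 28.4 ± 1.24 to 160.2 ± 12.7 CPM and UGT1A6 from 59.8 ± 1.99 to 219 ± 10.7 CPM. However, UGT1A genes share exons and their counts cannot be told apart with certainty. Of 13 glutathione transferases 6 were higher and 4 lower (median 0.12). Of 15 cytochrome P450 genes 4 were higher and 7 lower: CYP2W1 fell from 34.3 ± 0.920 to 1.31 ± 0.243 CPM and CYP4F3 from 1.06 ± 0.192 to 0.169 ± 0.0754 CPM, and CYP1B1 rose from 0.208 ± 0.101 to 1.74 ± 0.369 CPM (neighbour median 0.72) with the knockout at 0.327 ± 0.115 CPM. Drug metabolism as a whole had 33 of 59 genes higher and 14 lower.

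Of 65 listed transcription factors of the gut epithelium 48 were tested. Of these 91.7% were called, against 65.3% of all genes tested, with 26 higher and 18 lower. HNF4G, a nuclear receptor of enterocytes, fell from 2.15 ± 0.326 to 0.30 ± 0.0647 CPM and CREB3L3, a regulator of lipid genes, from 4.95 ± 0.547 to 1.49 ± 0.283 CPM. EHF, an epithelial ETS factor, rose from 0.368 ± 0.0909 to 2.19 ± 0.462 CPM. GRHL2, a factor of epithelial barrier genes, rose from 58.8 ± 0.777 to 118 ± 5.66 CPM with the knockout below wild type at 48.7 ± 1.85 CPM, and SOX2 rose from 32.8 ± 1.20 to 84.7 ± 1.20 CPM (neighbour median 0.59). HOX genes, which give body position, were higher at 20 of 30 tested and lower at 5, and 17 of the 20 were also higher in the knockout. HOXC genes were higher at 8 of 9 and HOXD genes at all 3 that were tested, of 9 listed. A gene was tested if it reached a minimum count in at least 1 group, so the untested members are not described. HOXC12 rose from 0.438 ± 0.0841 to 5.04 ± 0.314 CPM, HOXC11 from 0.315 ± 0.0741 to 2.12 ± 0.610 CPM and HOXD3 from 1.14 ± 0.219 to 6.46 ± 0.252 CPM. In the knockout these 3 lay between the DNMT3A1 line and wild type (1.84, 0.883 and 2.88 CPM).

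Wnt signalling, which keeps crypt cells dividing, had 30 of 73 tested genes higher and 21 lower. Among ligand genes, WLS, which carries Wnt proteins to the surface, rose from 13.4 ± 0.638 to 68.3 ± 3.39 CPM, WNT5A from 5.75 ± 0.587 to 15.1 ± 1.36 CPM, and WNT6 fell from 1.13 ± 0.110 to 0.272 ± 0.0214 CPM. Of 15 receptors 6 rose and 2 fell, one of them LGR5, a stem cell receptor, from 34.7 ± 2.12 to 18.6 ± 1.12 CPM with 6.54 ± 0.359 CPM in the knockout. The nuclear transducers PYGO1 and LEF1 fell, PYGO1 from 17.4 ± 0.392 to 1.51 ± 0.207 CPM. Of 16 target genes 10 rose and 4 fell, with CD44 from 35.6 ± 0.605 to 114 ± 7.32 CPM and EPHB3 from 6.80 ± 0.852 to 30.9 ± 0.843 CPM (neighbour median 0.76) and, in the other direction, NKD1, a feedback inhibitor, from 101 ± 2.62 to 14.5 ± 1.27 CPM. In the BMP and TGF-beta list, with 13 of 37 higher and 16 lower, the extracellular inhibitor NOG fell from 1.31 ± 0.308 to 0.109 ± 0.00887 CPM with the knockout at 1.10 ± 0.206 CPM, SMAD1 fell (-2.19) and INHBB, an inhibin chain, rose (2.19). The EGF receptor list had 9 of 17 higher and 6 lower, with EREG, a ligand, falling from 108 ± 3.23 to 48.2 ± 2.31 CPM, and EGF (1.42) and the early response gene EGR1 (1.33) rising. The Notch list had 7 of 25 higher and 9 lower, with MAML2, a coactivator, at 1.24 (neighbour median 0.82), HES4, a target, at -0.90, and the glycosyltransferase LFNG at -0.85, and the protein kinase A list had 6 of 32 higher and 17 lower, with PDE10A (-1.82) and PDE3A (-2.10, neighbour median 0.37) beside PKIB.

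Interferon-stimulated genes were lower more often than higher. Of 57 tested, 28 fell and 11 rose, and of the 30 antiviral effectors 17 fell and 5 rose (median log2 fold change -0.59, against 0.335 in the knockout). MX1, a GTPase that blocks viral replication, was at 9.17, 9.79, 9.12 and 11 CPM in wild type and 0.854, 0.957 and 0.817 CPM in the DNMT3A1 line, and the knockout was at 1.84 ± 0.0543 CPM. XAF1, an apoptosis regulator, fell from 1.32 ± 0.304 to 0.0960 ± 0.0182 CPM, and OAS2, which senses double-stranded RNA, from 1.04 ± 0.211 to 0.138 ± 0.0278 CPM, with the knockout at 1.37 ± 0.142 and 1.37 ± 0.236 CPM. The groups overlapped at none of these 3 genes, and 7 of the 17 effectors that fell were lower in the knockout too. ISG15, a ubiquitin-like modifier, fell from 22.1 ± 1.10 to 5.34 ± 0.406 CPM, and the RNA sensor IFIH1 from 10.2 ± 0.543 to 2.68 ± 0.169 CPM with 10.3 ± 0.548 CPM in the knockout. Against this direction, the ligases HERC5 and HERC6 rose, from 2.21 ± 0.254 to 13.6 ± 0.123 CPM and from 4.02 ± 0.412 to 13 ± 0.313 CPM. Of 20 genes of MHC class I presentation 11 fell and 4 rose, with the immunoproteasome subunit PSMB8 from 2.51 ± 0.552 to 0.580 ± 0.189 CPM and the peptide-loading protein TAPBP from 55.4 ± 1.99 to 28.9 ± 1.38 CPM. The TNF and NF-kB list had 20 of 53 genes higher and 19 lower, with the receptor IL6R rising from 1.49 ± 0.185 to 15 ± 2.61 CPM and the chemokine CCL2 falling from 1.36 ± 0.121 to 0.135 ± 0.0818 CPM.

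Genes of respiration and of division were lower by small amounts that repeated over most members. Of 75 nuclear genes for oxidative phosphorylation 55 fell and 5 rose, none by 2-fold (median log2 fold change -0.18, against 0.06 in the knockout). For complex V, the ATP synthase, 12 of 15 fell and none rose (median -0.42), and for complex IV 9 of 10 fell and none rose. ATP5MF was at 102, 92.8, 98.3 and 103 CPM in wild type and 57.3, 54.2 and 57.3 CPM in the DNMT3A1 line, ATP5PF fell by 0.72 on the log2 scale, and NDUFS6 fell by 0.70 (neighbour median -0.42) although it was higher in the knockout (0.12). The 13 protein-coding genes of the mitochondrial genome, looked at after the values were seen, did not follow: 7 were higher and 3 lower, from -0.80 at MT-CO3 to 0.75 at MT-ND1. Of 70 cell cycle and replication genes 54 fell and 7 rose (median -0.26, knockout -0.05). CCND2, a cyclin of the G1 phase, was at 227, 241, 213 and 233 CPM in wild type and 68.4, 71.5 and 64.5 CPM in the DNMT3A1 line, with 106 ± 7.14 CPM in the knockout. Inhibitors of the cycle fell as well, at 7 of 8, among them the imprinted CDKN1C from 24.7 ± 1.99 to 7.79 ± 0.629 CPM with the knockout above wild type at 34.4 ± 1.25 CPM (neighbour median 0.46). CENPA, the centromeric histone, rose by 1.15 among neighbours on chromosome 2 with a median of 1.07.

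Most enzymes of cholesterol synthesis were lower than wild type in the DNMT3A1 line and in the knockout line. Of 20 enzymes 17 fell and 1 rose (median log2 fold change -0.43, knockout -0.44), and all 17 were lower in the knockout too. HMGCS1, which makes the precursor of mevalonate, was at 449, 458, 466 and 455 CPM in wild type, 233, 235, 241 and 249 CPM in the knockout and 223, 213 and 238 CPM in the DNMT3A1 line. Wild type stood apart from both lines, and the same held for the lanosterol synthase LSS, from 223 ± 11.4 to 121 ± 4.6 CPM (neighbour median -0.34), and for IDI1, from 257 ± 2.29 to 134 ± 6.38 CPM (neighbour median -0.37). The 10 regulators were split, 5 higher and 5 lower. SCD, the desaturase that makes oleate, fell from 1189 ± 32.9 to 527 ± 17.1 CPM with 539 ± 19.9 CPM in the knockout. The list of lipid absorption had 13 of 38 genes higher and 16 lower: ACSL1, an acyl-CoA synthetase, rose from 11.7 ± 0.697 to 44.7 ± 0.963 CPM against 5.17 ± 0.424 CPM in the knockout, the apolipoprotein APOA1 rose from 267 ± 19.2 to 573 ± 77.4 CPM, and the sterol acyltransferase SOAT2 fell from 16.7 ± 0.705 to 7.28 ± 0.471 CPM.

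Matrix genes moved both ways, 37 of 73 higher and 27 lower. Of 17 collagens, a list that does not hold COL2A1 (2.32), 5 rose and 9 fell, with a highest log2 fold change of 1.17. Beside COL4A5 and COL4A6 the fibrillar collagen COL3A1 fell from 5.34 ± 0.395 to 1.19 ± 0.114 CPM. THBS1, thrombospondin, was at 609, 599, 607 and 616 CPM in wild type and 204, 216 and 210.5 CPM in the DNMT3A1 line, and the protease inhibitor TIMP1 fell from 15.3 ± 1.34 to 2.10 ± 0.174 CPM. TFPI, the tissue factor inhibitor, rose from 3.52 ± 0.420 to 40.1 ± 1.76 CPM, near the knockout (38.6 ± 2.22 CPM). The other metalloproteinases next to MMP1 rose too, MMP10 to 1.12 ± 0.122 CPM and MMP7 to 1.25 ± 0.118 CPM, from 0.0811 and 0.368 CPM (neighbour medians 0.83 and 0.83). Among secreted acute phase proteins 11 of 20 rose and 3 fell: besides ITIH2, albumin, ALB, went from 7.83 ± 0.806 to 49.3 ± 10.5 CPM with 8.18 ± 0.357 CPM in the knockout. Complement genes were mixed, with 7 of 18 higher and 5 lower (log2 fold changes from -2.48 to 2.74, median -0.05). The largest rise was at C5, from 9.68 ± 0.148 to 64.6 ± 3.57 CPM with 11.7 ± 0.982 CPM in the knockout.

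Lists that promoter methylation is known to control split as well. Of 72 germline genes 13 had enough counts to be tested, 9 of them higher and 2 lower. Besides DPPA3 and SOHLH1, DMC1, a meiotic recombinase, rose from 0.716 ± 0.235 to 2.21 ± 0.222 CPM (neighbour median 0.31), HORMAD2 from 0.185 ± 0.0453 to 0.999 ± 0.105 CPM (neighbour median 0.36) and the testis gene TEX15 fell from 1.03 ± 0.232 to 0.104 ± 0.0568 CPM. Since genes had to reach a minimum count in at least 1 group to be tested, the count says nothing of the others. Of 27 imprinted genes 7 were higher and 11 lower, with GNAS falling from 859 ± 17.9 to 529 ± 14.7 CPM (neighbour median -0.40) and the paternally expressed PEG10 from 638 ± 15.9 to 434 ± 5.39 CPM. Of 11 clustered protocadherins 5 were lower and none higher, 3 of them below 1 CPM in both groups. PCDHB2 fell from 2.75 ± 0.412 to 0.778 ± 0.0918 CPM (neighbour median -0.32) and PCDHGB5 from 4.98 ± 0.524 to 4.04 ± 0.320 CPM, with overlapping groups (neighbour median -0.31) and no call without DNMT3A1 replicate 4 (edgeR adjusted p = 0.0566). Reads of these near-identical genes may have been split between them. Among S100 proteins and annexins 8 of 22 were higher and 10 lower, with the calcium-binding S100P (1.15) and the phospholipid-binding ANXA1 (2.07) rising and ANXA13 falling (-1.32).

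In absolute level, the largest gain in CPM among genes called was at RN7SL2, an RNA of the signal recognition particle. It had 13953, 14150.1, 16120.2 and 14743 CPM in wild type and 17747, 19986 and 17454 CPM in the DNMT3A1 line (log2 fold change 0.32, adjusted p = 9.65e-06). The next gains were at FN1, fibronectin (5596 ± 226 to 7129 ± 717 CPM, with 3977 ± 103 CPM in the knockout), DPP4, the elongation factor EEF1A1 (0.10) and LRP2. The call at EEF1A1 was lost when wild-type replicate 2, 3 or 4 or DNMT3A1 replicate 1 or 4 was left out (edgeR adjusted p from 0.0558 to 0.104). RN7SL2 has near-identical copies among which reads may be shared. The largest losses were at MT-CO3, GLUD1, a mitochondrial glutamate dehydrogenase (1541 ± 18.1 to 864 ± 37.0 CPM), SCD, THBS1 and the ribosomal protein gene RPS24 (-0.44). GLUD1, SCD and THBS1 were at 845, 539 and 280.2 CPM in the knockout, which left them closer to the DNMT3A1 line than to wild type.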

How the data were processed

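Stranded total-RNA libraries of the Caco-2 lines gave read pairs of 75 bases each. The authors trimmed them with Trim Galore 0.4.4 (reads under 35 bases discarded), aligned them to GRCh38 with STAR 2.5.2b and counted reverse-strand read pairs per gene with featureCounts 1.5.2, and the deposited values are these raw gene counts, 1 file a library, not normalized. The study's own test was DESeq2. The mouse libraries and DNMT3A1 replicate 3 were not analysed here.

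From the counts, genes passing filterByExpr in the 7 libraries were scaled by TMM and tested with the quasi-likelihood F test of edgeR 4.0.16 (R 4.3.3, two-sided, no covariate), with Benjamini-Hochberg adjustment over all 17029 genes and a threshold of 0.05. The knockout and DNMT3A2 lines were each fitted with wild type alone. Levels are CPM on TMM sizes. A group with no read was set to 3 counts a library for a bound, and groups with a few reads were compared as a ratio of summed counts with an exact 95% binomial interval. A neighbour median is the median log2 fold change of the 50 nearest tested genes, and windows hold 50 consecutive tested genes. Identifiers were matched to symbols for 56948 of 58051 genes (98.1%). Positions are those of the count files (GRCh38). A few genes that the rule would name are not reported here.

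The 28 lists, the markers and the comparison itself were chosen with earlier results of these data known. Genes were named by rule: DNMT3A, the 10 highest and 10 lowest changes among called genes whose groups did not overlap and whose mean was at least 1 CPM, the 5 on each side among genes not called or oppositely called in the knockout, the 3 members of each list with the largest called change plus members of roles described, the 5 largest gains and losses in CPM, up to 3 genes near the median of the 4 highest and 4 lowest windows, and the markers. Genes at the step on chromosome 2, the switched genes and the mitochondrial genes were named, and the ends of chromosome stretches set, after their values were seen. The procedure was tested on simulated counts. Alternatives were DESeq2 1.42.0, other scalings (RLE, upper quartile, total counts), other filters and thresholds, all 4 lines in 1 fit, a replicate block, lane as a term or split, removal of a length trend, smaller windows and leaving out each library. Removal of a GC trend and subtraction of the neighbour median were chosen after seeing the data. The lane was read from the file names, and the precision of a level rests on depths of 25923894 to 37799624 counts.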

Additional observations from a re-analysis of the deposited data

Results flagged for a closer look

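In 4 libraries a single one can stand far from the others, and this was looked for over 241 levels of named genes in the wild-type and knockout groups: a library was marked where its gap to the nearest other, divided by the range of the group, was above the 95% critical value of Dixon's test for 4 values. Chance marks about 1 in 20, and 15 (6.22%) were marked, all in wild type. The 3 DNMT3A1 libraries are too few for this. Among genes whose wild-type level was marked, HADHB was at 139 CPM in replicate 1 (others 146 to 147) and DTNB at 5.86 CPM (others 7.07 to 7.27), beside DNMT3A on chromosome 2, and HADHA was at 244 CPM in replicate 2 (others 237 to 238). In replicate 2 also, EREG was at 112 CPM (others 105 to 107), ESPN at 15.6 CPM (others 17.5 to 17.9), COL3A1 at 4.75 CPM (others 5.49 to 5.59), TEX15 at 1.38 CPM (others 0.875 to 0.956), PCDHGB5 at 4.21 CPM (others 5.14 to 5.30) and C10orf90 at 0.0725 CPM where the others had no read. Replicate 3 held DPP4 at 374 CPM (others 378 to 379) and ANXA1 at 3.73 CPM (others 4.45 to 4.53). Replicate 4 held GRHL2 at 57.6 CPM (others 59.1 to 59.3), TUSC1 at 1.23 CPM (others 0.986 to 1.02), ENSG00000258114 at 0.0772 CPM (others 0.287 to 0.299) and HLA-DPB1 at 0.0257 CPM where the others had no read. The value of PCDHGB5 lay within the range of the DNMT3A1 libraries, and each of the other values lay on the same side of all DNMT3A1 libraries as the rest of its group.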

How the results depend on the processing

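The number of genes called lay between 9849 (lane 5 alone) and 11420 (no filter on low counts), with 10062 by DESeq2. This range covers the alternatives that changed scaling, filter, samples or covariates, apart from lane 6 alone, which held a single DNMT3A1 library. The number at least 2-fold apart was 2043, or 1206 once a mean of 1 CPM was required, where 9949 genes were called in all. With total counts in place of TMM, 5093 of the calls were higher and 6049 lower (45.7% higher against 50%). The highest window median was 1.224, against 1.191 with total counts and 1.332 in windows of 25 genes, and the lowest was -0.577, against -0.611 with total counts, -0.54 with a length trend removed, -0.489 with a GC trend removed and -0.656 in windows of 25 genes. The cause of the moves between scalings and trends was not tested. Leaving out each library in turn gave 10443 to 10801 genes called, 5227 to 5373 higher, 5216 to 5518 lower, 1970 to 2133 at least 2-fold apart, 5803 to 6035 also called in the knockout in the same direction, 2757 to 3212 not called there, 767 to 808 list members called, -0.795 to -0.745 for DNMT3A, and 1.201 to 1.231 and -0.583 to -0.563 for the windows.

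Replicate numbers in the labels did not pair libraries (correlations of same-numbered deviations -0.00444, 0.0279 and -0.0542), and a replicate block gave 10727 genes called, 5375 higher and 5352 lower, 2059 at least 2-fold apart, 6098 also called in the knockout in the same direction, 2803 not called there and a log2 fold change of -0.751 for DNMT3A. It changed no call of a named gene. Of 184 named genes with a call, 180 kept it at an adjusted p of 0.05 under every alternative in which they were tested, and none turned. A gene that an alternative did not test was left out there. ANXA13 lost it within lane 5 (edgeR adjusted p = 0.0545), as did KRT20 (0.18), and EEF1A1 lost it with total counts (0.0808), with lane as a term (0.0533), within lane 5 (0.409) and in 5 of the leave-outs. PCDHGB5 lost it within lane 5 (0.244), without DNMT3A1 replicate 4 (0.0566) and in DESeq2 (0.0631). EFR3B gained a call under 4 alternatives. The medians of the 14 lists beyond 0.1 kept their sign under every alternative run. Genes near 0.1 CPM rest on a few reads a library, so their folds are loose, and the intervals and floors cover counting error only.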
